A study of Mus musculus with 47 samples.

Results

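The genes described here are 10 immediate early genes of the mouse brain: Fos, Fosb, Junb, Egr1, Egr2, Egr3, Egr4, Arc, Npas4 and Nr4a1. They were taken as a given list, which was chosen with earlier results of these data known. All 10 of 10 were found by symbol and Ensembl gene ID in the count tables of both sexes, among 55416 gene IDs in each table. RNA had been sequenced from the brains of 3xTg mice, which are homozygous for the 3xTg-AD set of alleles (APPSwe, tauP301L and PS1M146V), and every group below carries them. For 9 months, from 6 months of age, the mice ate an amino acid-defined Control diet or a version of it low in 1 branched-chain amino acid, which was isoleucine in IleR, leucine in LeuR and valine in ValR. Control had 4 male and 6 female libraries, IleR 3 and 5, LeuR 3 and 6, and ValR 4 and 6, so that 37 of the 47 libraries in the labels were used and 10 male libraries were not analysed here. No mice without the transgenes were among the groups, so every comparison below is within this model.

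Immediate early genes are transcribed when a neuron fires, from factors that are already in the cell and need no new protein. Calcium entry activates kinases that phosphorylate CREB at CRE sites and, with serum response factor, drive these promoters within minutes, and the transcripts decay soon after. Fos, Fosb and Junb encode subunits of the AP-1 transcription factor, Egr1 to Egr4 are zinc finger transcription factors, Npas4 is a transcription factor induced by calcium in neurons, Nr4a1 is an orphan nuclear receptor, and Arc is a synaptic protein that acts in the endocytosis of AMPA receptors. Several of them are known to be abundant in cortex, hippocampus and striatum of unstimulated animals.

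Promoter letters from RefSeq (GRCm38.p6) were matched for 7 of the 10 genes, and Arc, Egr1 and Egr3 had no entry. The 150 bases before the transcription start are shown for the 5 genes that have 1 window in the table, lying outside annotated exons but for 6 bases in Fosb. Egr2, which has 5 windows, and Npas4, whose window lies within annotated exons and holds no CRE core in these 150 bases, are not shown, so that the presence of the core in all 5 shown says nothing about the other members. Each sequence reads 5′ to 3′ toward the start, with every CRE core (TGACG, or CGTCA where it lies on the other strand) in capitals.
Fos (chr12:85473740-85473889, plus strand): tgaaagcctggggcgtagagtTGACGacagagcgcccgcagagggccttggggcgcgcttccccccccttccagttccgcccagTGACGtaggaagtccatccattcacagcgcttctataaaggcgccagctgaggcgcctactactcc
Nr4a1 (chr15:101266696-101266845, plus strand): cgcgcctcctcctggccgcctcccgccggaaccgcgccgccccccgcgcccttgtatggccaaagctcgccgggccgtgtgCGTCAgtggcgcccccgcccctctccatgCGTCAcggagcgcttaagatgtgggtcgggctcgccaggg
Junb (chr8:84978749-84978898, minus strand): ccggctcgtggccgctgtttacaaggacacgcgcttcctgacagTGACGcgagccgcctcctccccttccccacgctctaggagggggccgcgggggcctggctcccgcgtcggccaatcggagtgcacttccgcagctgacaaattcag
Fosb (chr7:19310046-19310195, minus strand): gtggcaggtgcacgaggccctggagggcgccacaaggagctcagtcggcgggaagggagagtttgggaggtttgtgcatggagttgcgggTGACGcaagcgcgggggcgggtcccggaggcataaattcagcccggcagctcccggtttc
Egr4 (chr6:85513590-85513739, minus strand): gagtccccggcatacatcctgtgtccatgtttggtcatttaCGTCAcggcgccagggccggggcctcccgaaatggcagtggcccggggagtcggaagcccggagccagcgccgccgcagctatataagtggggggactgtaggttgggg
In the 250 bases before the start, a CRE core on either strand was found in 9 of the 11 promoters of the 7 genes and in 17.8% of 32851 mouse promoters of the same length. Of these 9, 3 are overlapping windows of Egr2 that hold the same sites. Fos held it at positions -129 to -125 and -66 to -62 from the start, and Nr4a1 held it 4 times, nearest at -40 to -36. The full palindrome TGACGTCA, which contains the core, was in 0 of the 11 and in 1.55% of all. A CArG box (the serum response factor motif, CC, then 6 A or T bases, then GG) was found in 4 of the 11, all of them windows of Egr2 and 3 of them overlapping, and in 1.47% of all promoters. The AP-1 site (TGA, G or C, TCA) was found in 0 of the 11 and in 4.46% of all, and a TATAAA box in 1, that of Fos, and in 12.4% of all. These matches describe letters in a window and say nothing of binding in these brains.

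The 10 genes lie on 9 chromosomes of the GRCm38 build. The AP-1 genes are Fos (ENSMUSG00000021250, chromosome 12, 85473890 to 85477273), Fosb (ENSMUSG00000003545, chromosome 7, 19302696 to 19310051) and Junb (ENSMUSG00000052837, chromosome 8, 84974484 to 84978718). The Egr genes are Egr1 (ENSMUSG00000038418, chromosome 18, 34859823 to 34864984), Egr2 (ENSMUSG00000037868, chromosome 10, 67535475 to 67542188), Egr3 (ENSMUSG00000033730, chromosome 14, 70077203 to 70082614) and Egr4 (ENSMUSG00000071341, chromosome 6, 85511121 to 85513589). Arc (ENSMUSG00000022602, 74669083 to 74672570) and Nr4a1 (ENSMUSG00000023034, 101254269 to 101274795) are both on chromosome 15, and Npas4 (ENSMUSG00000045903, 4984355 to 4990316) is on chromosome 19. Junb is the only 1 of the 10 that overlaps another annotated gene, Prdx2, which is transcribed from the opposite strand.

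The libraries held between 12682687 and 25722333 counts in males and between 10672599 and 21370973 in females. Levels are given as CPM, counts scaled to library size, after TMM scaling within each sex. The labels give each library a number of its own and do not say how libraries relate to mice, so the p-values measure the spread between these libraries. The labels name the tissue as brain and the methods the left hemisphere, while the extraction text in the labels names liver. The pan-neuronal markers summed to 4596 CPM or more in every library. The make-up of the pieces differed between libraries. In males the 10 cerebellar marker genes summed to between 25.9 and 54.7 CPM in Control and to between 121.1 and 4273 CPM in the restricted libraries. The 12 cortical and hippocampal markers summed to between 686.9 and 1528 CPM in male Control and to between 165.5 and 406.2 CPM in the restricted males. The 10 markers of brainstem and spinal cord lay at 0 for 5 or 6 genes in each male Control library, with sums up to 12.8 CPM, and at 0 for 6 genes in LeuR 21, with a sum of 10.4 CPM. In the other restricted males 0 of them were at 0 and the sums were 71.2 CPM or more. The pan-neuronal markers overlapped, at between 5697 and 7570 CPM in Control and between 4659 and 6068 CPM in restricted males. In females the cerebellar sum ran from 20.8 to 4223 CPM in Control and from 23.6 to 3954 CPM in the restricted diets, with low and high libraries in every diet. The forebrain score of a library averages the log2 CPM of the genes in the cortex and hippocampus list and in the striatum list, each centred within a sex.

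In males, most immediate early genes were lower on each restricted diet than on Control, and Egr3 was the gene that fell furthest. Of the 10 genes, 8 were lower in IleR, 8 in LeuR and 9 in ValR at an adjusted p under 0.05, and 0 were higher in any. The corresponding share of all genes tested that were lower was 8.68% in IleR, 6.33% in LeuR and 12.4% in ValR, and the share higher was 6.63%, 3.81% and 11.1%. The median log2 fold change of the 10 genes was -2.69 in IleR, -2.46 in LeuR and -2.98 in ValR, beside 0.04, 0.05 and 0.03 over all genes tested. All 10 genes passed the filter on low counts in both sexes. The 3 comparisons share the 4 Control libraries and are not independent of each other. The forebrain score moved with the groups, from 1.12 to 3.41 in male Control and from -1.83 to 0.66 in the restricted males, and diet and score cannot be told apart in males. The LeuR count was the least firm, at 4 without LeuR 19, 5 without Control 3 and 0 when only LeuR and Control entered the fit, beside 2.41%, 3.58% and 0% of all genes called in either direction in the same fits. In bulk tissue, fewer cells of a type and less RNA per cell cannot be told apart.

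Among the Egr genes, Egr3, a factor with known roles in synaptic plasticity, lay at 190.5, 298.0, 52.2 and 160.1 CPM in the male Control libraries 1, 3, 4 and 5. It lay at 7.51, 3.50 and 3.38 CPM in IleR 13, 14 and 17, at 1.30, 16.4 and 16.5 CPM in LeuR 19, 20 and 21, and at 2.52, 3.84, 1.36 and 2.36 CPM in ValR 7, 9, 10 and 12. Every restricted library was below every Control library, and Control 4 was the lowest of its group while LeuR 20 and LeuR 21 were the highest of theirs. The log2 fold change was -5.21 ± 0.80 (SE; adjusted p = 0.00152) in IleR, a 36.9-fold lower level. In LeuR it was -3.96 ± 0.74 (adjusted p = 0.00818), which is 15.6-fold lower. In ValR it was -6.13 ± 0.76 (adjusted p = 0.000173), which is 69.9-fold lower. Among all genes ordered by fold change, Egr3 stood at the 0.14, 0.27 and 0.248 percentile from the bottom in IleR, LeuR and ValR.

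Egr1, a widely used marker of neuronal activity, had the highest level per length of the 10 in male Control. It lay at 307.5, 502.5, 102.0 and 261.0 CPM in the male Control libraries, at 30.8, 35.0 and 43.8 CPM in IleR, at 21.5, 41.5 and 41.6 CPM in LeuR and at 33.4, 38.4, 37.9 and 41.5 CPM in ValR. The 10 restricted libraries lay within 21.5 to 43.8 CPM, and the Control libraries spread over a wider range above them. The log2 fold change was -3.00 ± 0.42 in IleR (adjusted p = 0.00111), -3.08 ± 0.42 in LeuR (adjusted p = 0.00359) and -2.96 ± 0.38 in ValR (adjusted p = 0.000196), so the fall was 8.03-fold, 8.43-fold and 7.76-fold.

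Egr2, which is also known for its role in Schwann cells, had the lowest level per length of the 10 and rests on few reads in the restricted males. Its counts were 31 to 191 in Control and 4 to 21 in the restricted libraries, or 1.97 to 11.3 CPM against 0.236 to 1.30 CPM. Egr2 fell by 3.02 on the log2 scale in IleR (SE 0.69, adjusted p = 0.0102), by 2.65 in LeuR (SE 0.67, adjusted p = 0.0269) and by 3.45 in ValR (SE 0.64, adjusted p = 0.00182). Egr4 lay at 22.5, 44.1, 7.19 and 16.8 CPM in Control and between 0.627 CPM, in LeuR 19, and 5.69 CPM, in LeuR 20. Its log2 fold change was -2.98 ± 0.65 (adjusted p = 0.00827) in IleR, -2.73 ± 0.65 (adjusted p = 0.0201) in LeuR and -3.53 ± 0.61 (adjusted p = 0.00108) in ValR. For both genes no restricted library reached the lowest Control library.

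**Figure D1:**
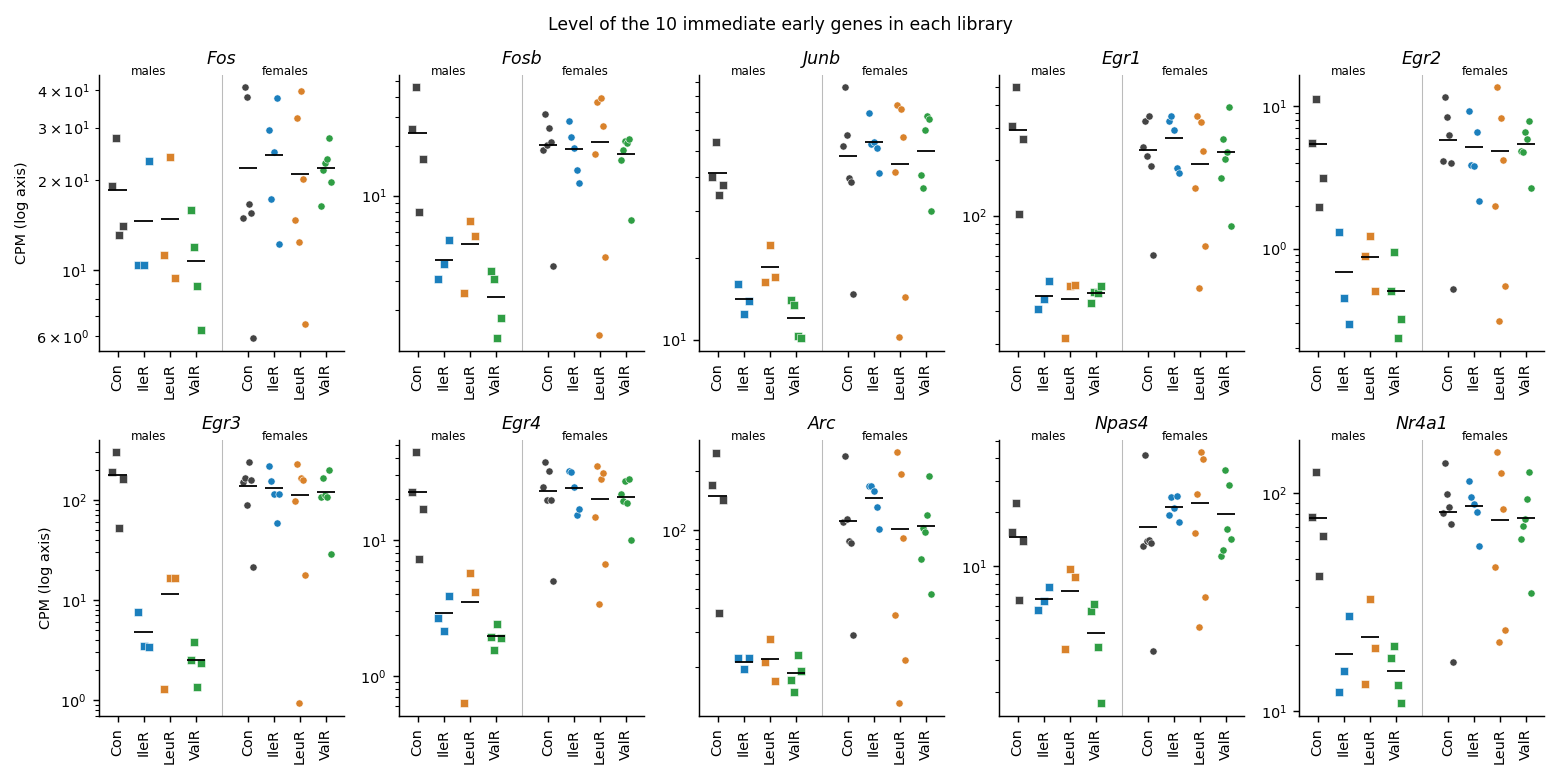
Level of each gene in every library, as CPM on a log axis, by diet in males (squares, left) and females (circles, right), with the group mean as a bar. In males the Control libraries stand above the restricted libraries for 8 genes in every diet, while in females the 4 diets overlap for all 10 genes and a few libraries of several diets lie low.

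Of the AP-1 genes, Fosb and Junb fell and Fos did not pass the test. Fos lay at 19.1, 27.8, 13.0 and 14.1 CPM in Control, at 10.4, 10.4 and 23.1 CPM in IleR, at 11.2, 23.9 and 9.37 CPM in LeuR and at 15.8, 11.9, 8.85 and 6.31 CPM in ValR. These groups overlap, since IleR 17, LeuR 20 and ValR 7 were each above the lowest Control library. The log2 fold change of Fos was -0.34 ± 0.41 in IleR (adjusted p = 0.637; 95% interval -1.23 to 0.54), -0.33 ± 0.41 in LeuR (adjusted p = 0.652; interval -1.22 to 0.56) and -0.79 ± 0.38 in ValR (adjusted p = 0.162; interval -1.62 to 0.04).

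Fosb lay at 25.6, 45.9, 7.96 and 16.8 CPM in male Control, at 3.10, 3.80 and 5.33 CPM in IleR, at 2.55, 6.99 and 5.64 CPM in LeuR and at 3.45, 3.10, 1.36 and 1.78 CPM in ValR. No restricted library reached Control 4, the lowest of the Control libraries, although LeuR 20 came within 1 CPM of it. Fosb fell 5.89-fold in IleR (adjusted p = 0.00711), 4.79-fold in LeuR (adjusted p = 0.0206) and 9.96-fold in ValR (adjusted p = 0.000571). Junb lay close together within each diet, at 40.1, 54.0, 34.2 and 37.3 CPM in Control, 12.5 to 16.1 CPM in IleR, 16.4 to 22.4 CPM in LeuR and 10.1 to 14.0 CPM in ValR. Its fold change was smaller than that of Fosb, and its p-values were the lowest of the 10 genes in all 3 diets apart from Egr1 in LeuR. Junb fell by 1.55 on the log2 scale in IleR (SE 0.19, adjusted p = 0.000828), by 1.15 in LeuR (SE 0.18, adjusted p = 0.00461) and by 1.79 in ValR (SE 0.17, adjusted p = 8.2e-05).

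Arc lay at 169.8, 248.7, 37.8 and 141.7 CPM in male Control, at 22.2, 19.5 and 22.1 CPM in IleR, at 21.1, 27.7 and 16.9 CPM in LeuR and at 17.1, 15.0, 23.1 and 19.0 CPM in ValR. The restricted libraries lay close together whatever the diet, and below every Control library. Arc fell 7.04-fold in IleR (adjusted p = 0.00176), 6.85-fold in LeuR (adjusted p = 0.00503) and 8.05-fold in ValR (adjusted p = 0.000284). Nr4a1 lay at 77.9, 125.0, 41.6 and 63.8 CPM in Control and between 10.8 and 32.7 CPM in the restricted libraries, again without overlap. The log2 fold change of Nr4a1 was -2.08 ± 0.41 (adjusted p = 0.00483) in IleR, -1.83 ± 0.41 (adjusted p = 0.0159) in LeuR and -2.33 ± 0.37 (adjusted p = 0.000716) in ValR.

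Npas4, which is expressed mainly in neurons, passed the test in ValR alone, although the difference of ValR from IleR (adjusted p = 1) or LeuR (adjusted p = 0.331) did not. It lay at 15.6, 22.5, 6.49 and 13.9 CPM in Control, at 5.71, 6.40 and 7.64 CPM in IleR, at 3.45, 9.60 and 8.75 CPM in LeuR and at 5.61, 6.13, 3.54 and 1.72 CPM in ValR. IleR and LeuR overlapped Control through Control 4, and ValR did not. The log2 fold change was -1.79 ± 0.43 in ValR (adjusted p = 0.00934), -1.15 ± 0.46 in IleR (adjusted p = 0.112) and -1.02 ± 0.46 in LeuR (adjusted p = 0.175). Counted without a model, every restricted library was below every Control library for 8 of the 10 genes in IleR, 8 in LeuR and 9 in ValR, beside 14.5%, 9.48% and 13.6% of all genes tested.

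**Figure D2:**
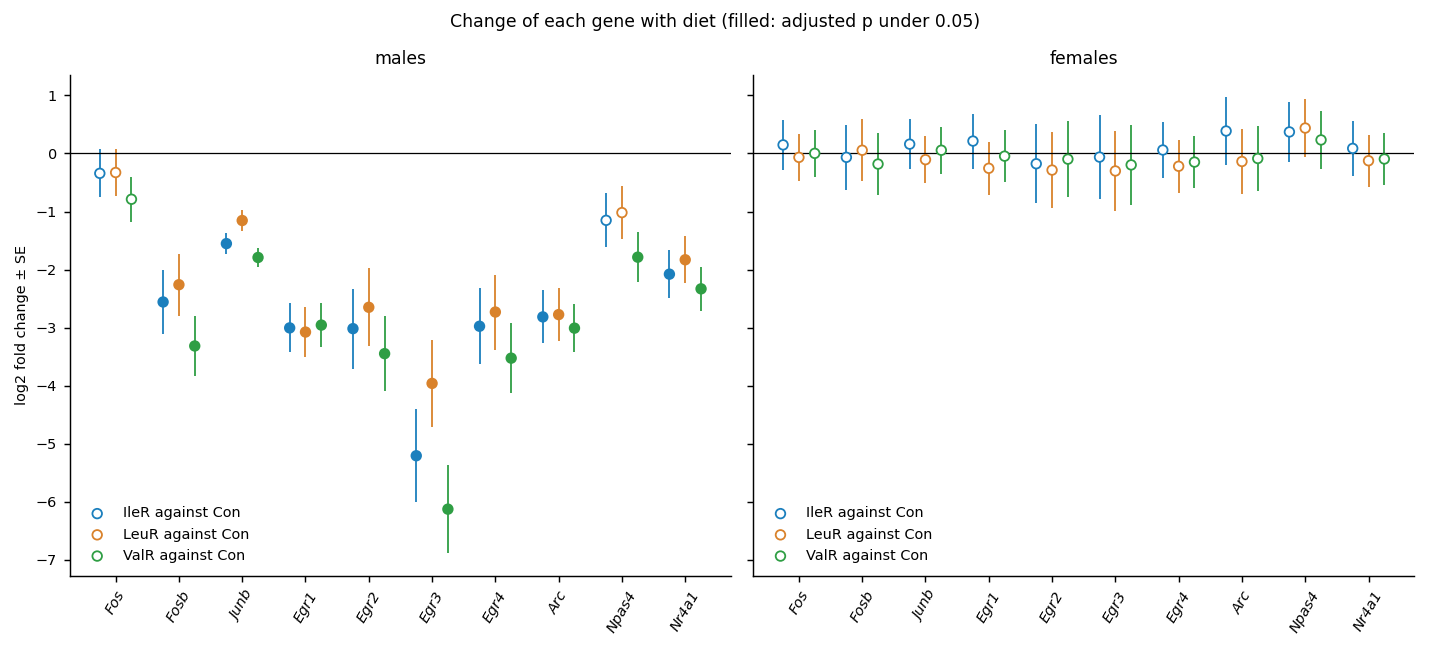
Log2 fold change against Control with its standard error for each gene and diet, in males (left) and females (right), filled where the adjusted p was under 0.05. In males 25 of 30 points are filled and Egr3 is lowest in each diet, while in females every point is open and lies between -0.30 and 0.44.

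The restricted diets were also compared with each other in males. ValR against LeuR called 0 of the 10 genes, beside 2.75% of all genes, ValR against IleR called 0 members and 0% of all genes, and IleR against LeuR called 0 members and 0% of all genes. At an unadjusted p under 0.05, 2 of the 10 members differed between ValR and LeuR, beside 23.9% of all genes, and 0 in ValR against IleR and IleR against LeuR, beside 2.83% and 11.3%. These were Junb, at -0.64 ± 0.18 on the log2 scale (adjusted p = 0.064), and Egr3, at -2.17 ± 0.74 (adjusted p = 0.101), both lower in ValR. DESeq2 called 2 members and 2496 genes between ValR and LeuR, and limma voom 0 members and 563 genes. Over all genes, DESeq2 called 7 between ValR and IleR and 108 between IleR and LeuR, limma voom called 0 in each, and 628 and 2512 genes had an unadjusted p under 0.05. The interval of the difference for Egr3 between ValR and IleR, from -2.57 to 0.73, leaves room for a sizeable difference in either direction.

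In females, none of the 10 genes differed between a restricted diet and Control by edgeR's test. Counts of calls were 0 of 10 in IleR, LeuR and ValR, beside 0%, 0% and 0% of all genes tested. No member had an unadjusted p under 0.05 in any of the 3 comparisons, DESeq2 and limma voom called 0 members as well, and 577, 820 and 777 genes of all tested, or 2.84%, 4.03% and 3.82%, had an unadjusted p under 0.05. Over all genes, DESeq2 called 8, 1 and 0 and limma voom 1, 0 and 0. The 30 log2 fold changes ran from -0.30 to 0.44, with medians of 0.12 in IleR, -0.13 in LeuR and -0.09 in ValR. Single libraries moved these limits: the lowest was -0.92 without LeuR 44 and the highest 0.96 without Control 26, and limma voom gave a lowest value of -1.31. Their standard errors lay between 0.41 and 0.73, beside 0.17 and 0.80 in males. The male estimate of each gene but Fos lay below the 95% interval of the female change on the same diet.

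The female levels were widely spread within each diet. Egr3 lay at 21.4, 155.2 and 237.6 CPM (lowest, median and highest) in Control, at 0.927, 128.4 and 226.4 CPM in LeuR and at 28.5, 109.7 and 199.5 CPM in ValR, and at 216.5, 152.7, 115.4, 58.1 and 115.3 CPM in the 5 IleR libraries. These diets overlap, and the lowest library of LeuR lies far below the rest. Arc lay at 29.0, 99.3 and 238.6 CPM in Control, at 13.0, 64.0 and 249.4 CPM in LeuR, at 47.3, 100.1 and 190.0 CPM in ValR, and at 167.9, 167.3, 159.2, 131.0 and 101.4 CPM in IleR. For Fosb, Egr1, Egr3 and Egr4 the 4 lowest female libraries were the same, Control 30, LeuR 45, LeuR 48 and ValR 36. Fos was less spread than Egr3 among females, with a highest level 6.92 times the lowest over the 23 libraries, against 256.3 times for Egr3, 44.2 times for Egr2 and 19.1 times for Arc. In males the same ratios were 4.40 for Fos, 229.5 for Egr3, 47.9 for Egr2 and 16.6 for Arc, so Egr3 had the widest and Fos the narrowest range of the 10 genes in both sexes.

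A test of the difference itself was made for each diet in 1 model of all 37 libraries, as the male change minus the female change. For ValR, 5 of the 10 genes differed, all with a lower male change, beside 4.25% of all genes in either direction. The differences on the log2 scale were -5.92 ± 1.16 for Egr3 (adjusted p = 0.00803), -2.91 ± 0.67 for Egr1 (adjusted p = 0.0174), -3.38 ± 0.78 for Egr4 (adjusted p = 0.0182), -3.13 ± 0.84 for Fosb (adjusted p = 0.0335) and -2.93 ± 0.81 for Arc (adjusted p = 0.0369). Nr4a1 at -2.23 ± 0.67 (adjusted p = 0.0501), Junb at -1.85 ± 0.56 (adjusted p = 0.0505) and Egr2 at -3.34 ± 1.06 (adjusted p = 0.0595) lay just beyond the threshold. Fos, at -0.79 ± 0.62 (adjusted p = 0.436), and Npas4, at -2.02 ± 0.75 (adjusted p = 0.0955), lay further beyond it. This count rests on the method and on single libraries: limma voom called 0 members and DESeq2 9, beside 0.129% and 10.4% of all genes, and leaving out 1 library gave between 1, without male Control 3, and 9, without female Control 26, beside 1.13% and 6.04% of all genes.

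For IleR and LeuR the diet by sex test called 0 of the 10 genes, beside 0.0979% and 0.00445% of all genes. At an unadjusted p under 0.05, 8 members in IleR and 7 in LeuR had a lower male change, beside 19.1% and 13.0% of all genes in either direction, and DESeq2 called 7 and 3, beside 4.68% and 1.41% of all genes, where limma voom called 0 members in both and 0 and 1 of all genes. Egr1 had a difference of -3.21 ± 0.73 in IleR (adjusted p = 0.0567) and of -2.79 ± 0.72 in LeuR (adjusted p = 0.126). With 1 library left out, edgeR called up to 4 members in IleR and 1 in LeuR, both without male Control 4, beside 3.82% and 2.65% of all genes. Without the 5 female libraries with a forebrain score under -1, an alternative chosen after seeing the data, it called 7 and 7, beside 8.84% and 2.13%. The counts of the sexes are in separate tables, and the forebrain score differed with diet in males but spread over each diet in females, so sex and make-up of the piece cannot be told apart here.

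The order of the genes, which needs a value per length, also differed between male diets. Divided by the summed exon length, male Control held Egr1 at 65.4 ± 36.8 CPM per kb (SD, n = 4), Arc at 48.9 ± 28.5, Egr3 at 39.8 ± 22.9, Nr4a1 at 22.0 ± 10.1, Junb at 18.0 ± 3.80, Egr4 at 10.5 ± 7.27, Fos at 7.87 ± 2.85, Fosb at 3.85 ± 2.60, Npas4 at 3.54 ± 1.59 and Egr2 at 1.61 ± 1.22. Most neighbours in this order differed by less than the larger of their SDs, but the steps from Junb to Egr4, from Fos to Fosb and from Npas4 to Egr2 were larger than it. The 4 female groups had the same order, with Fosb and Npas4 exchanged. In male ValR the order by mean was Egr1, Arc, Junb, Fos, Nr4a1, Npas4, Egr4, Egr3, Fosb and Egr2. Egr3 thus stood below Npas4 and Egr4 there, at 0.572 ± 0.232 CPM per kb (SD, n = 4), where Fos stood at 4.56 ± 1.75.

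Ratios within a library do not depend on scaling, and they show that the genes did not fall by equal amounts. The ratio of Egr3 to Egr1 counts was 0.619, 0.593, 0.512 and 0.613 in male Control, 0.244, 0.100 and 0.077 in IleR, 0.0604, 0.396 and 0.398 in LeuR, and 0.0754, 0.100, 0.0358 and 0.0568 in ValR. Every restricted male was below every male Control library, and LeuR 20 and LeuR 21 were nearest to Control. In females the ratio ran from 0.321 to 0.861 in all but LeuR 48, at 0.261, and LeuR 45, at 0.023, which was lower than any male library. The ratio of Fos to Fosb counts was 0.605 to 1.64 in male Control, 2.73 to 4.33 in IleR, 1.66 to 4.39 in LeuR and 3.54 to 6.52 in ValR. In females it ran from 0.644 to 2.78 in 22 libraries and was 8.74 in LeuR 45. Every restricted male was above every Control library in this ratio too, by a small margin in LeuR 21. Female LeuR 45, whose cerebellar markers summed to 3954 CPM, lay beyond the restricted males in both ratios.

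**Figure D3:**
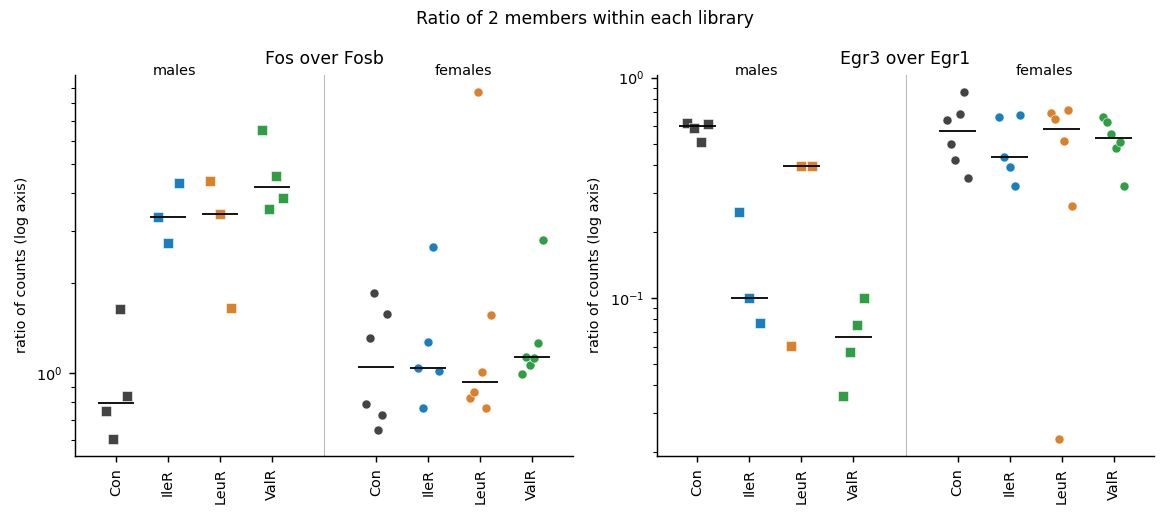
Ratio of Fos to Fosb counts (left) and of Egr3 to Egr1 counts (right) within each library, on log axes, by diet in males (squares) and females (circles), with group medians as bars. In males every restricted library lies outside the Control range in both ratios, although LeuR 21 at 1.66 is next to Control 4 at 1.64 in the left panel, and in females LeuR 45 stands apart from its group at 8.74 and 0.023.

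The relation to forebrain content was examined through the forebrain score. In males it averaged 2.36 ± 0.97 (SD, n = 4) in Control, -0.91 ± 0.69 (n = 3) in IleR, -0.07 ± 1.20 (n = 3) in LeuR and -1.63 ± 0.24 (n = 4) in ValR. The difference from Control was -3.26 in IleR and -2.42 in LeuR (two-sided exact permutation p = 0.0571 for each, the smallest that 3 against 4 libraries allow). In ValR it was -3.98 (two-sided exact permutation p = 0.0286, the smallest that 4 against 4 allow). In females the differences were -0.07, -0.71 and -0.21 in IleR, LeuR and ValR, with two-sided exact permutation p-values of 0.931, 0.472 and 0.766. With the score as a covariate beside diet, 0 of the 10 genes were called in any male comparison by edgeR, but neither was any other gene, at 0% of all genes tested in IleR, LeuR and ValR. At an unadjusted p under 0.05 there were 3, 4 and 1 members, beside 3.96%, 5.0% and 3.88% of all genes. They were Junb, Egr1 and Arc in IleR, the same genes and Egr3 in LeuR, and Junb in ValR. Junb then had a log2 fold change of -1.16 ± 0.33 in IleR, -0.86 ± 0.27 in LeuR and -1.31 ± 0.38 in ValR. Egr1 had -1.79 ± 0.75, -2.25 ± 0.60 and -1.52 ± 0.84. Egr3 then had a log2 fold change of -1.56 ± 0.92 in IleR, -1.66 ± 0.67 in LeuR and -1.60 ± 1.08 in ValR, and Arc of -1.97 ± 0.87, -2.12 ± 0.75 and -1.99 ± 0.99. Npas4 had positive values, 0.55 ± 0.84, 0.11 ± 0.63 and 0.20 ± 0.93, Fos had -0.01 ± 0.89, -0.10 ± 0.68 and -0.40 ± 0.97, and Egr4 had -0.64 ± 1.22, -1.31 ± 0.86 and -0.74 ± 1.39. The male Control libraries do not overlap the restricted libraries in the score. They do in its striatum part, where Control 3 and Control 4, at 0.41 and -0.28, lay below LeuR 21, at 1.15. Control 1 and Control 5, at 3.61 and 2.14, lay above every restricted library there. In the cortex and hippocampus part they do not, with the lowest Control at 2.28 and the highest restricted library at 1.31.

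Within diets, the relation of each gene to the score was estimated as a slope, in log2 units per unit of score. In females, 9 of the 10 genes rose with the score, beside 21.8% of all genes. The slope was 1.04 ± 0.17 for Egr3 (adjusted p = 5e-05), 0.70 ± 0.13 for Fosb, 0.66 ± 0.13 for Arc, 0.64 ± 0.19 for Egr2, 0.62 ± 0.08 for Egr4, 0.59 ± 0.09 for Egr1, 0.54 ± 0.12 for Npas4, 0.49 ± 0.11 for Nr4a1 and 0.47 ± 0.10 for Junb. Fos had the lowest slope, 0.19 ± 0.12 (adjusted p = 0.238). Egr3, which fell furthest on each restricted diet in males, had the steepest slope among females, and Fos did not pass either test. The 2 orders did not match throughout, since Egr4 fell further than Fosb in male ValR but had a lower slope. A link between the male changes and these slopes was not tested. The count rests on a few libraries: it was 5 without LeuR 45 and Control 30, the 2 libraries farthest from the median score, and 0 without the 5 libraries with a score under -1. With the striatum list alone as the score it was 3. Of all genes, 26.6%, 4.92% and 29.9% were called in either direction in these 3 fits.

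In males the slope within diets rested on 14 libraries in 4 diets, and 0 of the 10 genes were called by edgeR, beside 0.0857% of all genes. At an unadjusted p under 0.05 there were 2, beside 8.08% of all genes in either direction, Egr3 at 1.14 ± 0.27 (adjusted p = 0.186) and Npas4 at 0.50 ± 0.22 (adjusted p = 0.596), DESeq2 called 1 and limma voom 0, beside 1.29% and 0.162% of all genes. The LeuR males were spread in both measures. LeuR 19, with a score of -1.45, held Egr3 at 1.30 CPM, while LeuR 20 and LeuR 21, with scores of 0.59 and 0.66, held it at 16.4 and 16.5 CPM.

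When all 37 libraries were put on 1 scale, the level of Egr3 could be set beside the score across diets and sexes. LeuR 20 and LeuR 21 of the males had scores of -0.63 and -0.59 and log2 CPM values of Egr3 of 4.06 and 4.03. The females Control 30, LeuR 48 and ValR 36, with scores of -1.004, -0.72 and -0.49, held Egr3 at 4.42, 4.17 and 4.87. Male Control 4, with a score of -0.08, held it at 5.73, and female IleR 41, with a score of -0.34, at 5.88. Male IleR 13, with a score of -1.34, held it at 2.93, below Control 30. At the low end, female LeuR 45 had a score of -2.98 and Egr3 at 0.07, and the 4 male ValR libraries had scores from -3.09 to -2.48 and Egr3 between 0.50 and 2.00. Egr1 and Arc in LeuR 45 lay at 5.34 and 3.72, beside 5.04 to 5.31 and 3.93 to 4.47 in male ValR. At the middle scores Egr1 was lower in the males, at 5.39 and 5.36 in LeuR 20 and LeuR 21, than in the females, at 5.92, 6.10 and 6.497 in Control 30, LeuR 48 and ValR 36. Arc in female LeuR 43, with a score of 1.42, lay at 5.23, and in female IleR 41 at 7.05. These values are a description over libraries of unlike diet.

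**Figure D4:**
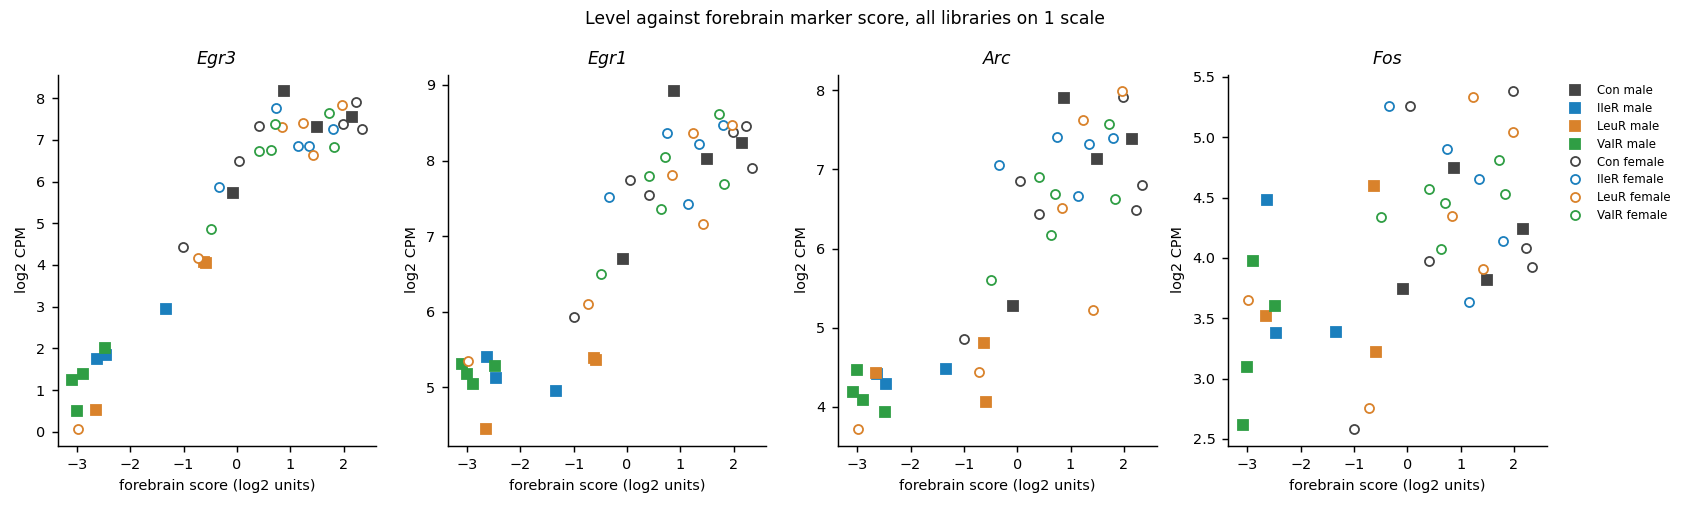
Log2 CPM of Egr3, Egr1, Arc and Fos against the forebrain score of each library, with all 37 libraries scaled together, males as filled squares and females as open circles, coloured by diet. Female LeuR 45, at a score of -2.98, lies beside the restricted males for Egr3, Egr1 and Arc, and Fos spreads widely at every score.

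The 10 genes also moved together among libraries of 1 diet. As residuals from the diet means over the 23 female libraries, the correlation of log2 CPM between 2 members had a median of 0.90, with the highest for Fosb with Egr4 (0.97) and Egr2 with Nr4a1 (0.96). Fos stood apart from Egr3 (0.48), Egr4 (0.66) and Egr1 (0.69). Over the 14 male libraries the median was 0.69, the highest pair was Fosb with Nr4a1 (0.91) and the lowest was again Fos with Egr3 (0.32). These values describe libraries that share depth and tissue make-up.

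Among genes outside the 10, the closest pattern over the 23 female libraries was that of Eml4, a microtubule-binding protein, with a Pearson correlation of 0.95 to the mean of the standardised members, out of 13877 genes ranked. Ppp1r3g (0.94), which encodes a glycogen-targeting subunit of protein phosphatase 1, and Slc1a2 (0.94), the main glutamate transporter of astrocytes, came next. Scara3, Lrp4, Lix1, Tanc2, Ptgs2, Gm43951 and Gramd2 followed, at 0.94 to 0.91, and Ptgs2, the inducible cyclooxygenase, is itself an activity-induced gene. With the forebrain score removed as well, Eml4 (0.88), Slc1a2 (0.83) and Ppp1r3g (0.83) still led, before Scara3, Atp9b, Lrp4, Yeats2, Lix1, Fbln2 and Nxpe4. The members themselves had correlations of 0.81 to 0.98 with their mean in the former ranking and of 0.62 to 0.96 in the latter.

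Among other genes that neuronal activity induces, some fell and others did not pass the test. Of 28 other rapid genes, 7 were lower and 1 higher in male IleR, 5 lower and 0 higher in LeuR, and 8 lower and 2 higher in ValR, with median log2 fold changes of -0.39, -0.24 and -0.20. Of all genes tested, 8.68%, 6.33% and 12.4% were lower and 6.63%, 3.81% and 11.1% higher in these comparisons, so the higher counts are at or below those of all genes. Those that fell most, in ValR, were Ptgs2 at -3.23 ± 0.50 (adjusted p = 0.000562), Homer1, a postsynaptic scaffold, at -3.03 ± 0.39 (adjusted p = 0.0002) and Nr4a2, a nuclear receptor, at -2.92 ± 0.54 (adjusted p = 0.00167). Higher in ValR were Dusp5, a nuclear phosphatase, at 1.90 ± 0.63 (adjusted p = 0.0443) and Gadd45g, a stress-response gene, at 0.81 ± 0.21 (adjusted p = 0.0121). Of these 28 genes, 9 rose and 3 fell with the forebrain score in females, beside 21.8% and 20.7% of all genes.

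Of 12 delayed activity-induced genes, 7 were lower in IleR, 5 in LeuR and 8 in ValR, and 0 were higher, with medians of -0.95, -0.75 and -1.16, beside the same 8.68%, 6.33% and 12.4% of all genes lower. The largest falls were those of Nptx2, a secreted pentraxin at excitatory synapses, at -3.59 ± 0.52 in ValR (adjusted p = 0.000383), Rgs4, a regulator of G protein signalling, at -2.70 ± 0.36 in ValR (adjusted p = 0.000261), and Inhba, an activin subunit, at -2.29 ± 0.62 in IleR (adjusted p = 0.025). In females 11 of these 12 rose with the forebrain score, beside 21.8% of all genes.

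Among 19 upstream regulators, the kinases and factors that turn calcium and growth factor signals into transcription, 5 were lower and 2 higher in IleR, 6 lower and 0 higher in LeuR, and 6 lower and 4 higher in ValR, beside 8.68%, 6.33% and 12.4% of all genes lower and 6.63%, 3.81% and 11.1% higher. Camk2a, the calcium and calmodulin kinase of forebrain excitatory neurons, was at -4.54 ± 0.68 in ValR (adjusted p = 0.000466) and Mef2c, a transcription factor of cortical neurons, at -3.85 ± 0.43 in ValR (adjusted p = 0.000122). Rps6ka1, a ribosomal S6 kinase, was higher in ValR at 2.17 ± 0.28 (adjusted p = 0.000196), as were Crtc2, a CREB coactivator, at 0.58 ± 0.15 (adjusted p = 0.0123) and Rps6ka5, the kinase MSK1, at 0.54 ± 0.18 (adjusted p = 0.0461). In females 8 of the 19 rose and 7 fell with the forebrain score, beside 21.8% and 20.7% of all genes. Creb1, which encodes CREB itself, had log2 fold changes of -0.07, -0.41 and 0.02 and did not pass the test. In females 0 genes of these 3 lists differed with diet, and 2 rapid genes in IleR, 1 upstream gene in LeuR and 0 others had an unadjusted p under 0.05, beside 2.84%, 4.03% and 3.82% of all genes in IleR, LeuR and ValR.

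The marker lists moved with the male groups as well, where 8.68%, 6.33% and 12.4% of all genes were lower and 6.63%, 3.81% and 11.1% higher in IleR, LeuR and ValR. Of the 12 cortex and hippocampus genes, 10, 7 and 11 were lower in IleR, LeuR and ValR, and of the 10 striatum genes 4, 0 and 6 were lower. Of the 10 cerebellum genes, 9, 8 and 9 were higher, and of the 10 brainstem and spinal cord genes 5, 9 and 10 were higher. The median log2 fold change of the cortex and hippocampus list was -4.33, -2.45 and -6.58, which was lower than or close to the members' median in each diet. By contrast 1 or 2 of the 10 pan-neuronal genes were lower in each diet and 1 was higher, with medians of -0.30, 0.01 and -0.02. Of the 8 microglia genes, 3, 0 and 5 were lower, of the 8 astrocyte genes 2, 1 and 4 were higher, and 1 of the 7 thalamus genes was lower, in ValR. None of the oligodendrocyte, endothelium, choroid plexus or blood genes passed the test in a male comparison with edgeR, although 4, 5 and 3 of the 8 oligodendrocyte genes in IleR, LeuR and ValR and 5 of the 5 blood genes in LeuR had an unadjusted p under 0.05, beside 29.6%, 27.0% and 35.2% of all genes, and 0 of the endothelium and choroid plexus genes did.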

How the data were processed

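The methods name left brain hemispheres of 3xTg mice as the source of the RNA. It was sequenced on an Illumina NovaSeq and aligned by the authors to GRCm38.p5. The aligner is not given in the sources used here, and the labels and methods describe the RNA selection (polyA or total) differently. The authors deposited an expected count per Ensembl gene and library, without normalization. Their methods removed clear outliers by principal component analysis before testing, and whether this applies to the tables used here is not stated. The submitters' processing notes name R 3.4.3, edgeR and limma. The authors' tables of log2 fold changes and p-values against Control were not used. After rounding, these counts went into edgeR 4.0.16 under R 4.3.3 (TMM, quasi-likelihood test), with 1 model for the 4 diets of a sex. A gene was tested if all libraries of some diet group held 1 count or more. Differences between the sexes were tested in 1 model of all libraries. P-values were Benjamini-Hochberg adjusted over all genes tested, with a threshold of 0.05. Log2 CPM used a prior count of 2. Median depth was 16001013 counts in males and 15979541 in females. Alternatives used DESeq2 1.42.0, limma 3.58.1 with voom, other filters, scores and libraries. The fits were tested on simulated data. For the diet comparisons these data held no differences in tissue make-up, so they cannot speak to such differences between the diets. Symbols were matched for 52083 IDs, and coordinates came from GENCODE M21. Every member was named. From each activity list, up to 3 genes that rose most and 3 that fell most were named, among genes called in a male comparison whose mean log2 CPM reached 1, and 10 genes by likeness; Creb1 was named after its values were seen, and 1 gene that the rule names is not reported here. The members and lists were chosen with earlier results of these data known.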

Additional observations from a re-analysis of the deposited data

Results flagged for a closer look

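Among the female groups, a library stood far from the rest of its diet for several members. Control 30 was the low library for Fosb (log2 CPM 1.95), Egr1 (5.93), Egr2 (-0.62), Egr4 (2.36) and Nr4a1 (4.08), and ValR 36 for Fosb (2.85) and Egr3 (4.84). In all 66 groups were examined for such a library. Chance alone marks about 1 in 20 of independent groups, and these are not independent, since the members moved together among the same libraries. Both libraries had low forebrain scores, -1.73 and -1.26, and high cerebellar marker sums, 4223 and 2319.5 CPM, within their diets, and the part of these in the low values was not tested.

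Between the sexes, the change with ValR differed for 5 members, beside 4.25% of all genes, as the male minus the female log2 change. Limma voom called 0 of the members, beside 0.129% of all genes. Leaving out 1 library gave 1 (without male Control 3) to 9 (without female Control 26), beside 1.13% and 6.04%. The differences were -3.13 for Fosb, -2.91 for Egr1, -5.92 for Egr3, -3.38 for Egr4 and -2.93 for Arc. In males all 4 ValR libraries were below all 4 Control libraries for each of these genes, and in females the groups overlapped. The forebrain score differed from Control by -3.98 in male ValR and by -0.21 in female ValR, and its part in the difference was not tested.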

How the results depend on the processing

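With the forebrain score as a covariate, 0 members were called in male IleR, LeuR and ValR, and Npas4 turned to 0.55, 0.11 and 0.20 (log2). The LeuR count was 0 with only the groups compared and 4 at an adjusted p under 0.01, beside 0% and 1.83% of all genes. The ValR diet by sex count was 1 at an adjusted p under 0.01, beside 0.356% of all genes. DESeq2 called 2 members between ValR and LeuR, beside 2496 of all genes. By sex it called 7, 3 and 9 in IleR, LeuR and ValR, beside 4.68%, 1.41% and 10.4% of all genes. It called 1 male slope, beside 1.29%. Limma voom called 0 by sex in ValR, beside 0.129% of all genes. For IleR by sex, size factors from DESeq2 gave 1 and edgeR's filterByExpr 1, beside 0.223% and 0.346% of all genes. Without the 5 low-forebrain female libraries (an alternative chosen after seeing the data), the counts by sex were 7, 7 and 9, beside 8.84%, 2.13% and 13.9% of all genes. In the same setting the female slope count was 0, beside 4.92% of all genes, and the Fos slope was -0.074. The female slope count was 3 with the striatum list and 5 without the 2 farthest libraries, beside 29.9% and 26.6% of all genes. The male slope count was 1 without the 2 farthest libraries and 1 without the Control libraries, beside 0.159% and 0.128% of all genes. Male slopes turned to -0.032 (striatum list) and -0.070 (forebrain minus hindbrain) for Fos, -0.023 for Egr2 (striatum list) and -0.0082 for Arc (without Controls). The female IleR forebrain score difference was 0.20 with the cortex list. The causes were not tested.

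Leaving out 1 library at a time gave 4 (without LeuR 19) to 8 members in male LeuR, with 5 without Control 3, and 0 to 1 between ValR and LeuR. By sex it gave 0 to 4 in IleR, 0 to 1 in LeuR and 1 to 9 in ValR, and 0 to 1 male slopes. The score difference ranged from -4.39 to -3.63 in male ValR, where the exact permutation test of 3 against 4 libraries cannot go below 0.0571, from -0.46 to 0.26 in female IleR, from -1.11 to -0.057 in female LeuR and from -0.60 to 0.061 in female ValR. The male slope ranged from -0.069 to 0.21 for Fos and from -0.083 to 0.46 for Arc. The counts of 8, 8 and 9 lower members in males were the same by DESeq2 and limma voom. Over all genes and the alternatives other than left-out libraries, the calls ran from 0 to 4366 in male IleR (3398 in the fit described), 0 to 3611 in LeuR (2249), 0 to 5942 in ValR (5212), 0 to 2496 between ValR and LeuR (611), 0 to 2001, 1 to 482 and 29 to 3152 by sex (22, 1 and 955), and 1 to 285 and 1024 to 9118 for the male and female slopes (19 and 8648). With 1 library left out, they ran from 1838 to 4357 in male IleR, from 543 (without LeuR 19) to 3952 (without Control 4) in LeuR, from 3843 to 5990 in ValR, from 0 to 1990 (without ValR 9) between ValR and LeuR, from 0 to 925, 1 to 598 and 191 to 2463 by sex, and from 1 to 80 and 7237 to 8952 for the slopes, so the shares of all genes given beside the members move with them. No paired analysis was possible because no replicate number occurs in more than 1 group.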
